A study of Mus musculus with 23 samples.

Results

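The proteasome genes described here are 38 of the 16259 genes in a mouse small-intestine expression table. They are the symbols beginning Psma, Psmb, Psmc, Psmd or Psme and ending in a number, other than Psmb8, Psmb9 and Psmb10, that averaged at least 10 normalized reads over 23 libraries. The pattern matched 42 symbols, of which those 3 immunoproteasome genes were left out by name and Psma8, the alpha subunit of the testis proteasome, by its level (5 reads in total, and 0 reads in 20 libraries). The 38 comprise 7 alpha-ring and 7 beta-ring subunits of the 20S core, 6 ATPases and 11 other subunits of the 19S particle, 3 chaperones of 19S assembly (Psmd5, Psmd9 and Psmd10) and 4 activators (Psme1 to Psme4). The chaperones and activators are thus included although they are not subunits of the core or of the 19S particle.

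The libraries came from poly(A) RNA of whole proximal small intestine of male mice that were Ddit4-/- (11 libraries) or wild type (12 libraries). Ddit4 encodes REDD1, a stress-induced inhibitor of mTORC1 signalling. Doxorubicin, a DNA-damaging chemotherapy drug, was injected intraperitoneally at 20 mg/kg, and the study asked how a 24 h fast before the drug alters the intestinal response. Prefasted mice, refed from the time of the drug, were taken at 2, 6, 12 and 24 h in both genotypes (8 libraries). Ad libitum fed mice given the drug were taken at 6, 12 and 24 h in both genotypes and at 2 h in wild type (7 libraries), and the matching Ddit4-/- library at 2 h was not analysed here. The 8 untreated libraries, with 1 of each genotype per state, were refed for 6 h, refed for 2 h, fasted, or fed ad libitum and taken at 0 h. The ages and the cells that lack Ddit4 are not given in the sources used here. Each combination was a single library, so the 2 genotypes served as the samples of a state (in 11 of 12 states), with a term for genotype, and p-values measure the spread between these libraries.

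Depth was 11418115 to 23428519 gene-assigned reads per library, and the fewest reads of any of the 38 genes in any library was 119. Ddit4 had 0 to 16 reads in Ddit4-/- libraries, against 48 to 399 in wild-type libraries. Several libraries stand apart. The Ddit4-/- untreated ad libitum, fasted and 2 h refed libraries held at most 5 Y-linked reads, against at least 1088 in the other 20, although all mice were labelled male. The titles of the 4 wild-type prefasted doxorubicin libraries say untreated, and their drug label, which says doxorubicin, was used. Pancreatic acinar transcripts summed to 67987 normalized reads in the Ddit4-/- fasted library and 180502 in the wild-type untreated library refed for 6 h, against at most 3833 in the others. All 8 enterocyte markers were detected in every library.

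The proteasome degrades ubiquitin-tagged proteins in the cytosol and nucleus. Its 20S core is a stack of alpha and beta rings with the proteolytic sites inside, on Psmb5, Psmb6 and Psmb7, and the 19S particle recognises, unfolds and feeds in substrates. When proteasome activity is lost, cells induce the subunit genes together through the transcription factor NFE2L1, which binds antioxidant response elements in their promoters. The intestinal epithelium renews itself continually from dividing crypt cells.

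The 250 bases upstream of the start site (RefSeq, GRCm38.p6, read 5′ to 3′ on the strand of the gene) are shown for the 4 alpha-ring genes that differed most clearly after doxorubicin, because promoter elements are the known point of common control. Capitals mark the antioxidant response element core (TGACNNNGC or TGAGNNNGC) and the CCAAT box (CCAAT), both searched on both strands.
Psma1: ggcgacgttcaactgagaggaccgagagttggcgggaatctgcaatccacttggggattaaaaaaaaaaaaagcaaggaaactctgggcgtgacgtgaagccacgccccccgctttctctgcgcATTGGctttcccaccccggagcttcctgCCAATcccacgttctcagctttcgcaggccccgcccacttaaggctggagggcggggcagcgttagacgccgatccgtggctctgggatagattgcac
Psma4: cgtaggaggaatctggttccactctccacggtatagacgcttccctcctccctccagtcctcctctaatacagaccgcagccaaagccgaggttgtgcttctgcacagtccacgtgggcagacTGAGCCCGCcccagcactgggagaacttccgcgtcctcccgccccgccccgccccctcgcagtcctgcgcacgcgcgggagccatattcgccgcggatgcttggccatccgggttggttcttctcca
Psma5: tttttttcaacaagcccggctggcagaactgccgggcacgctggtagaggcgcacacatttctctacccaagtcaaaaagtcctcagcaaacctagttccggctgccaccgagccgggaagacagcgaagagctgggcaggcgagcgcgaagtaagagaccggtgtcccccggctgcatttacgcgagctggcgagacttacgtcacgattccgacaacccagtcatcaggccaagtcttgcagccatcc
Psma7: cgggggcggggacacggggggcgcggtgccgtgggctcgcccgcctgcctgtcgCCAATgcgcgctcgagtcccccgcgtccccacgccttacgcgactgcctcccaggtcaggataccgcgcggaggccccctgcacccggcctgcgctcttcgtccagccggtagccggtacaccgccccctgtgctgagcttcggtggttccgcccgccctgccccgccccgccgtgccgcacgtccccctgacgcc
Psma1 (chr7:114276117-114276366, minus strand) holds 2 CCAAT boxes and Psma7 (chr2:180042465-180042714, minus strand) holds 1. Psma4 (chr9:54950609-54950858, plus strand) holds 1 antioxidant response element core, and Psma5 (chr3:108256676-108256925, plus strand) holds neither motif, so no motif searched is shared by the 4. Of the 32 proteasome genes found in the promoter table, 11 (34.4%) hold the antioxidant response element core, as do 25.7% of all 27025 genes. The CCAAT box is in 12 of 32 (37.5%), and in 37.5% of all genes. The heat shock element core (GAANNTTC) is in 1 of 32, Psmb5, and in 7.73% of all genes. A match describes letters in this window, not a bound site.

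The 38 genes lie on 15 chromosomes. Per kilobase of annotated exon (GENCODE, GRCm38), mean levels ran from 50.3 normalized reads for Psmd5, a chaperone of the 19S base, to 1708 for Psme1, the alpha subunit of the PA28 activator. Within the alpha ring the same measure ran from 55.8 for Psma3 to 1382 for Psma6. For 9 genes (Psma3, Psma4, Psma5, Psmb3, Psmb5, Psmc1, Psmd2, Psmd11 and Psme2) at least 150 bases are 95% or more identical to another annotated gene, so their reads may be split or lost. Exons of 10 genes overlap another gene, and the kit does not mark strand.

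The 38 genes varied little between libraries. Their median SD was 0.23 on the log2 scale, against 0.41 for all 11939 genes with a mean of at least 10, and the highest library stood a median of 1.79 times above the lowest. The SDs were not matched for level, as the 38 averaged 217 (Psma3) to 3772 (Psme1) normalized reads and all genes reach down to 10. The narrowest was Psmd8, a 19S subunit, with 1839.8 to 2512 normalized reads (1.37-fold), and the widest was Psma5, an alpha-ring subunit, with 166 to 539.6 normalized reads (3.26-fold). The variation ran across the family. In the 8 libraries taken 12 or 24 h after doxorubicin 2 to 11 of the 38 genes were above their own mean. At 6 h after it 5 and 9 were in prefasted, and 28 and 30 in ad libitum, Ddit4-/- and wild-type mice. At 2 h 34 and 11 were in prefasted Ddit4-/- and wild-type mice, and 14 in ad libitum wild-type mice. In untreated Ddit4-/- mice fed ad libitum, fasted, refed for 2 h and refed for 6 h, 34, 34, 34 and 13 were, and in untreated wild-type mice 26, 26, 30 and 31. Of all genes, 49.3 to 53.8% were above their mean in each of the 23 libraries. The wild-type prefasted library at 6 h after doxorubicin held the lowest value of 9 genes, and the Ddit4-/- untreated ad libitum library the highest value of 7.

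**Figure D1:**
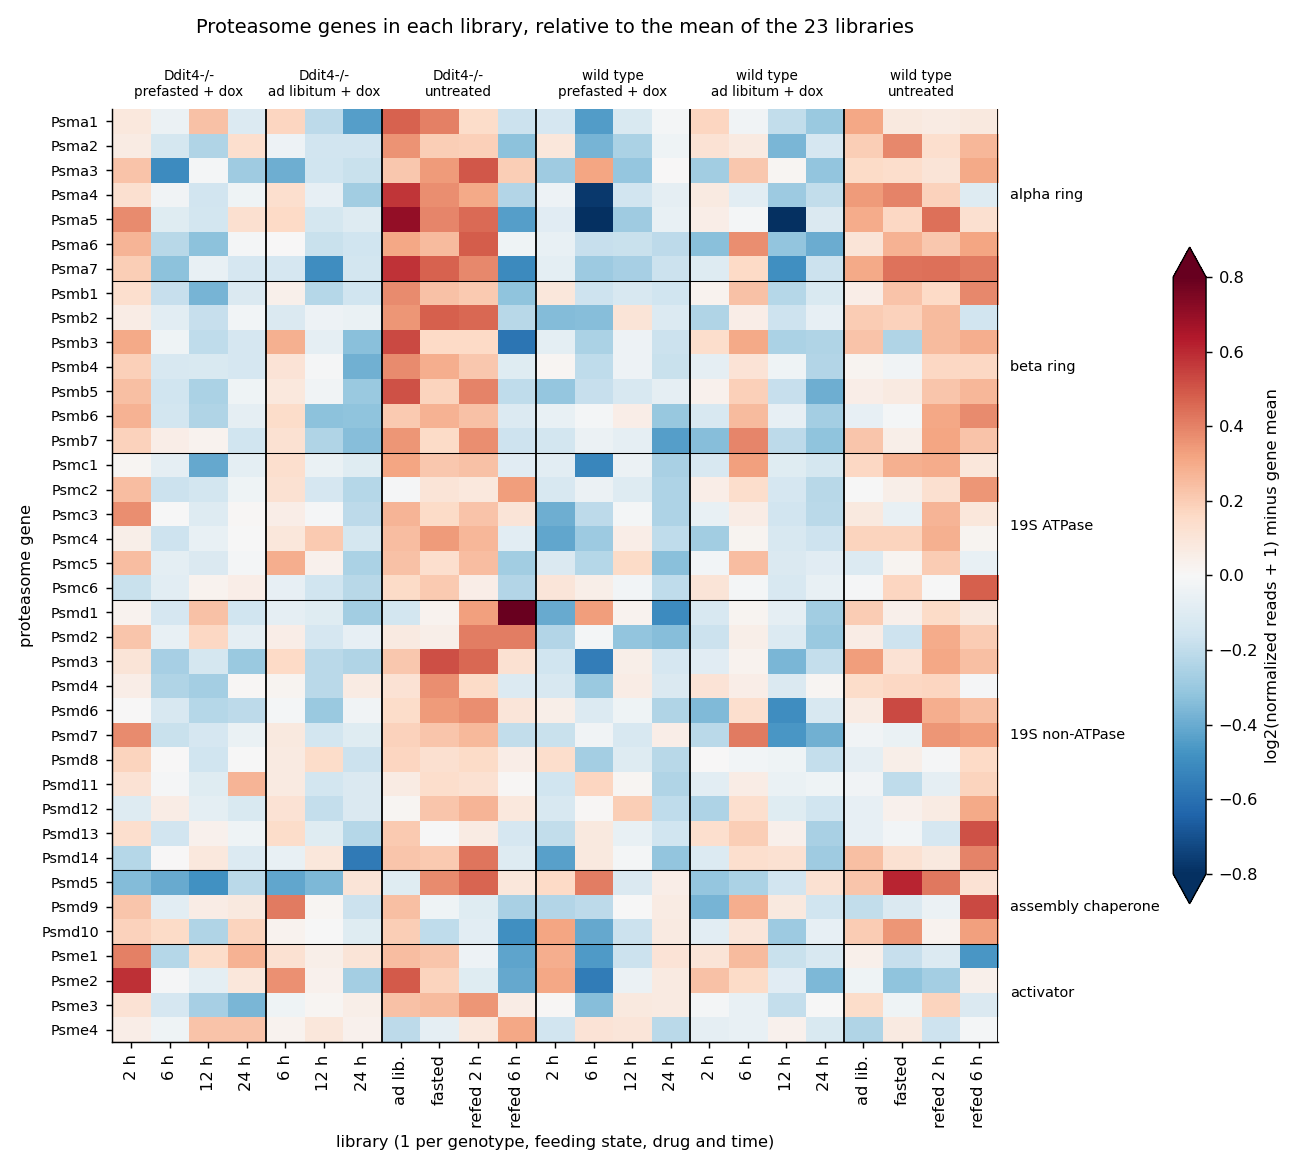
Level of each of the 38 proteasome genes (down the page, grouped by role) in each library (across), as log2(normalized reads + 1) minus the mean of the gene over the 23 libraries, red above and blue below, with the colour scale ending at -0.8 and 0.8. Most genes are blue at 12 and 24 h after doxorubicin, in the prefasted libraries at 6 h and in the wild-type libraries at 2 h after it. Most are red in the untreated libraries, other than the Ddit4-/- library refed for 6 h.

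In ad libitum fed mice 5 of the 38 genes were lower at 12 h after doxorubicin than in untreated mice and none was higher, where limma called 9% of the 11939 genes in either direction, with 4.78% higher and 4.21% lower. They were 4 of the 7 alpha-ring genes, Psma1, Psma4, Psma5 and Psma7, and Psmd3, a subunit of the 19S lid. At 24 h Psma1 and Psma4 were called, both lower, where 3.11% of all genes were called, 1.73% higher and 1.37% lower. At 6 h none of the 38 was called by limma, edgeR or DESeq2, where limma called 1.34% of all genes, and 1 of the 38 and 1763 of all genes were at an unadjusted p under 0.05. Fewer cells of a type and less RNA per cell cannot be told apart in whole tissue.

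Psma7, the alpha4 subunit, had 1118 normalized reads in the Ddit4-/- library and 1120.0 in the wild-type library at 12 h after doxorubicin, against 2359 and 1948 in the untreated Ddit4-/- and wild-type libraries. The treated pair agreed closely and lay far below both untreated libraries (log2 difference -0.94 ± 0.22 SE, limma adjusted p = 0.017). At 24 h Psma7 had 1423 and 1399 normalized reads, lower than untreated in both genotypes but not called (adjusted p = 0.15).

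Psma5, the alpha5 subunit, had 299 normalized reads in the Ddit4-/- and 187 in the wild-type library at 12 h after doxorubicin, against 539.6 and 405 untreated. Both treated libraries were below both untreated ones (log2 difference -0.98 ± 0.27 SE, limma adjusted p = 0.033). Near-identical pseudogenes cover 76.5% of its transcript, and at 24 h it had 307 and 305 normalized reads without a call (adjusted p = 0.23).

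Psma4, the alpha3 subunit, had 1602 and 1368 normalized reads at 12 h and 1384 and 1463 at 24 h in Ddit4-/- and wild-type mice, against 2496 and 2124 untreated. All 4 treated libraries were below both untreated ones. The log2 difference was -0.64 ± 0.18 at 12 h (SE, limma adjusted p = 0.039) and -0.69 ± 0.18 at 24 h (SE, limma adjusted p = 0.049). Psma1, the alpha6 subunit, had 1504 and 1521 normalized reads at 12 h and 1283 and 1417 at 24 h in Ddit4-/- and wild-type mice, against 2410.2 and 2157 untreated, again without overlap. It fell by 0.59 ± 0.17 on the log2 scale at 12 h (SE, limma adjusted p = 0.042) and by 0.76 ± 0.17 at 24 h (SE, limma adjusted p = 0.028).

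Psmd3 had 1277 and 1149 normalized reads at 12 h in Ddit4-/- and wild-type mice, against 1716 and 1866 untreated, without overlap (log2 difference -0.56 ± 0.17 SE, limma adjusted p = 0.048). Psme4, the PA200 activator linked to histone degradation, had the opposite sign, with 1348 and 1299 normalized reads at 12 h, against 1096 and 1071 untreated. Both treated libraries were above both untreated ones, by 0.29 ± 0.16 on the log2 scale (SE), without a call (limma adjusted p = 0.29).

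**Figure D2:**
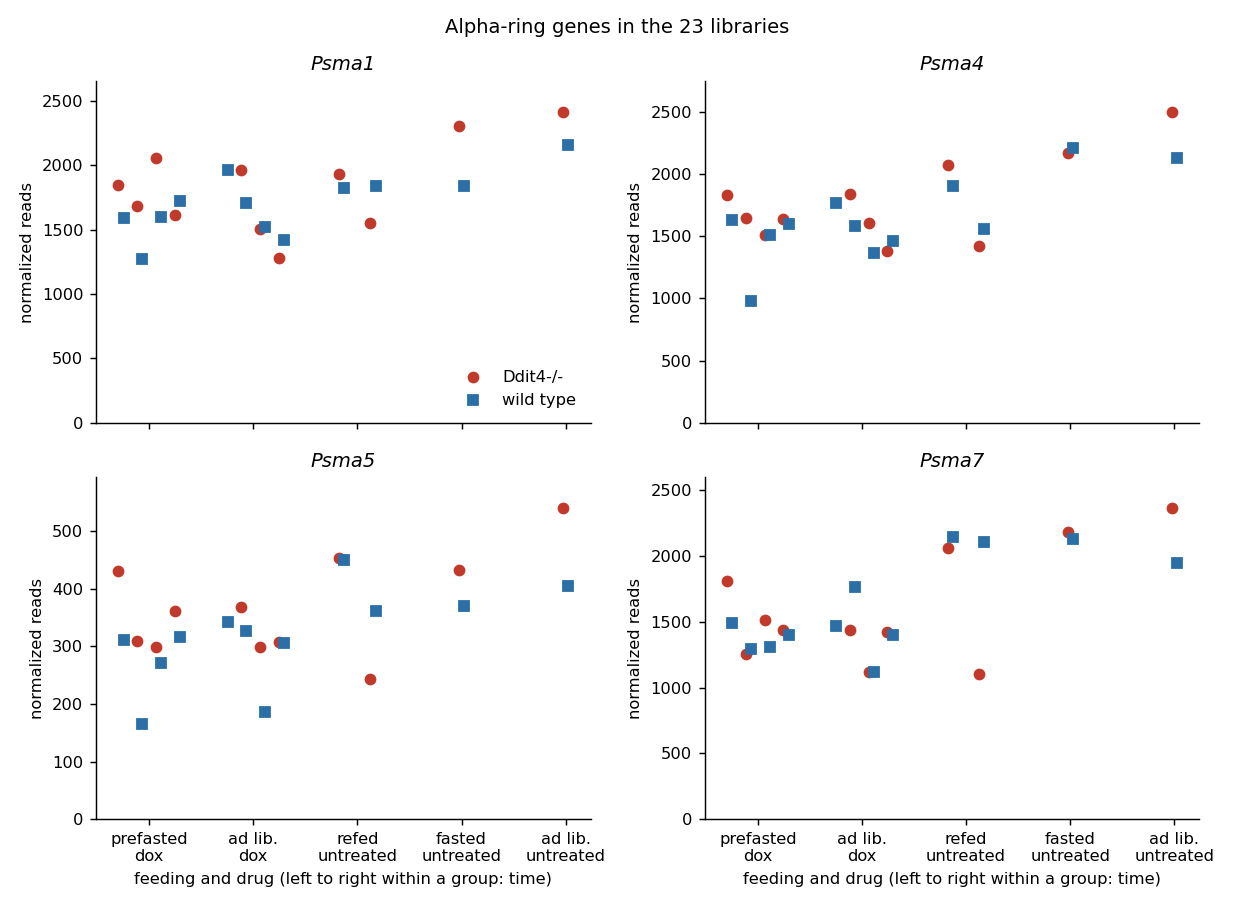
Normalized reads (vertical axes) of Psma1, Psma4, Psma5 and Psma7 in the 23 libraries, by feeding, drug and time along the horizontal axis and by genotype in the symbols. In each panel all 4 ad libitum libraries taken 12 or 24 h after doxorubicin lie below both untreated ad libitum libraries, for Psma1 at 1283 to 1521 normalized reads after the drug, against 2157 and 2410.2 untreated.

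The median log2 difference over the 38 genes was -0.27 at 12 h and -0.35 at 24 h, against -0.01 and 0.02 over all genes, and 35 and 36 of the 38 were below 0. At 12 h the median was -0.59 for the alpha ring and -0.39 for the beta ring, with all 7 genes of each below 0, and -0.19 for the 6 ATPases and -0.13 for the 11 other 19S subunits. At 24 h the medians were -0.60 for the alpha ring, -0.51 for the beta ring, -0.30 for the ATPases and -0.25 for the other 19S subunits. These medians are a description, and the difference between roles was not tested. Psmb5, which carries the chymotrypsin-like site, had 737 to 824.5 normalized reads at 12 h and 639.6 to 684 at 24 h, against 869 and 1195.5 untreated, without a call at either time (limma adjusted p = 0.26 and 0.10). Psmc2, a 19S ATPase, Psmd11, a lid subunit, and Psmd1, a base scaffold, were nearest to untreated at 12 h among the genes followed in every comparison, at -0.13, -0.12 and -0.11 on the log2 scale.

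By a count that needs no model, 27 of the 38 genes (71.1%) had all 4 libraries at 12 and 24 h after doxorubicin below both untreated ad libitum libraries, where 18.4% of all genes did. They included 7 of 7 alpha-ring genes, 6 of 7 beta-ring genes (not Psmb6), 4 of 6 ATPases (not Psmc4 or Psmc5), 8 of 11 other 19S subunits (not Psmd1, Psmd8 or Psmd13), 1 of 3 chaperones (Psmd10) and 1 of 4 activators (Psme3). All 4 libraries were above both untreated ones for 1 gene, Psme4, where 18.6% of all genes were. The lower count was 29 without the Ddit4-/- untreated library, where 27.5% of all genes were lower, and 35 without the wild-type one, where 28.5% were. With 1 untreated library the condition is weaker, so these counts could not fall below 27 and do not check it. Both times share the 2 untreated libraries, which were taken at 0 h, so the drug and the hours since then cannot be told apart.

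**Figure D3:**
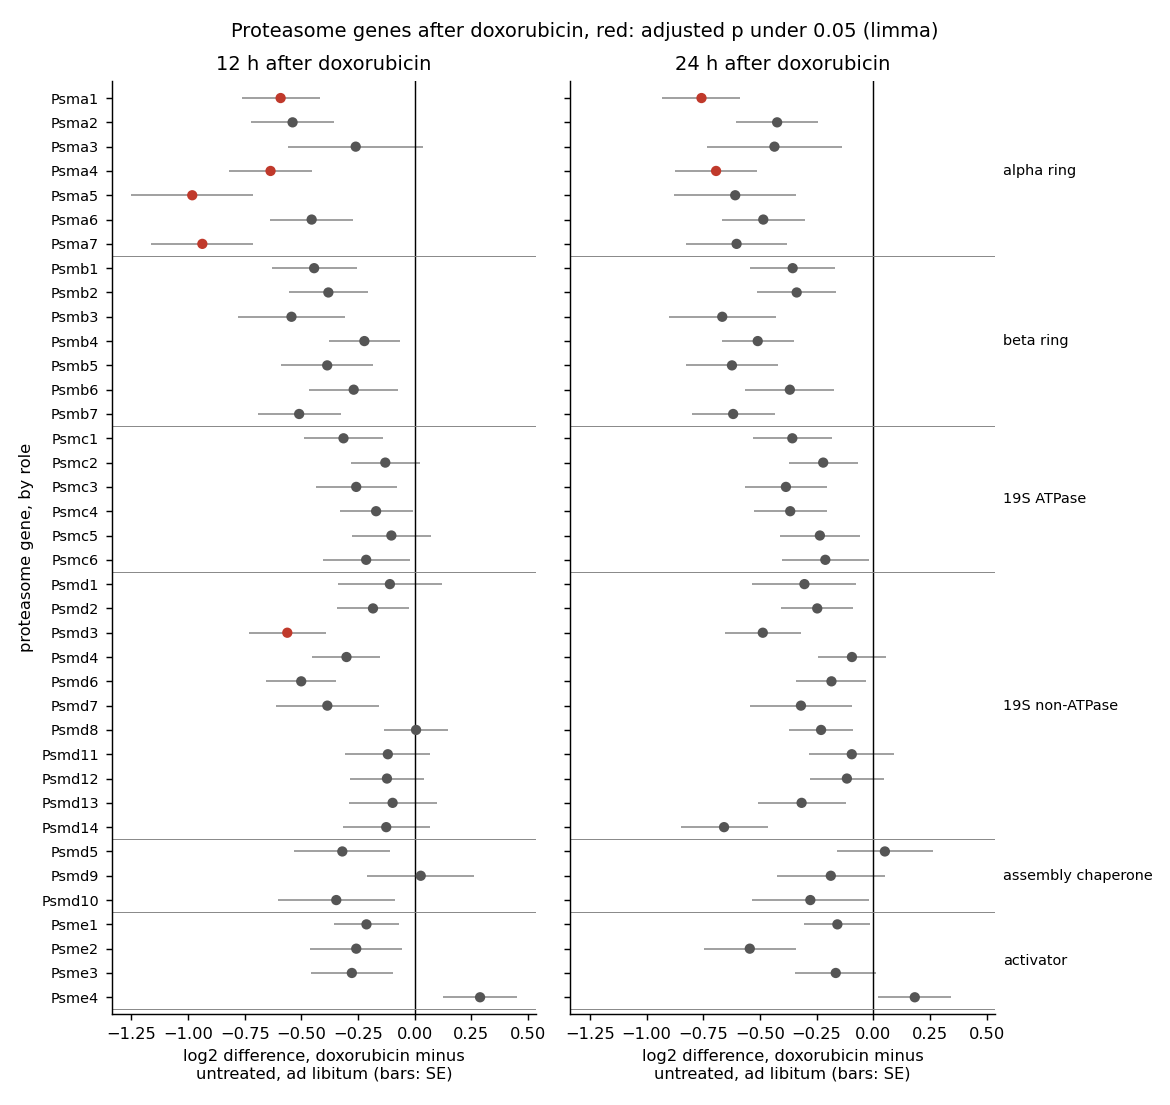
Log2 difference of each of the 38 proteasome genes between doxorubicin and untreated in ad libitum fed mice at 12 h and at 24 h, as points with SE bars from the limma fit, with the genes past an adjusted p of 0.05 marked. Of the 38 points 35 at 12 h and 36 at 24 h lie below 0, and Psme4 lies above 0 at both times.

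The single-gene calls rest on few libraries, while the medians moved less. The 5 calls at 12 h became 0 without the Ddit4-/- untreated ad libitum library or either 12 h library, 1 without the wild-type untreated ad libitum library, 2 without any 1 of the untreated 2 h refed or ad libitum 6 h doxorubicin libraries, and 8 without either untreated 6 h refed library. The 2 calls at 24 h became 0 without any 1 of the 4 libraries compared and 6 without either untreated 6 h refed library. They stayed at 2 without the wild-type ad libitum 2 h or either prefasted 6 h doxorubicin library, and were 1 without any 1 of the other 14 libraries. With the 3 libraries of few Y-linked reads left out, no gene was called at 12 or 24 h, with medians of -0.24 and -0.29.

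Markers of other cell types moved between the same libraries. The 4 stem cell markers summed to 60.8 to 182 normalized reads in the 4 libraries at 12 and 24 h after doxorubicin, against 1939 and 2876 in the untreated ad libitum libraries. The 7 markers of cycling crypt cells summed to 1569.6 to 1963, against 2785 and 3146 untreated, and the 6 Paneth cell markers to 3756 to 11746, against 18271 and 23221 untreated. The 5 smooth muscle markers summed to 169 to 639.6, against 608 and 2369.5 untreated, and the 8 enterocyte markers to 938147 to 1642060, against 798512 and 911078 untreated. None of these markers was at 0 in these libraries. The 5 goblet cell markers summed to 93084 to 153424, against 79576 and 86669 untreated. The 5 B and plasma cell markers summed to 1547 to 3703, against 841 and 1480 untreated, with at most 2 at 0. The 6 T cell markers summed to 4739 to 7186, against 3310 and 6360 untreated, with at most 1 at 0. Fat and pancreatic acinar marker sums overlapped between the groups. The part of these cell types in the proteasome differences was not tested.

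Between times after the drug in ad libitum mice, 31 of 38 genes had both 24 h libraries below both 6 h libraries, where 20.7% of all genes did, and Psmd5 and Psme3 had both above, where 21.8% did. The median log2 difference was -0.26, against 0.02 over all genes, and the beta ring had -0.48. None of the 38 was called by limma, edgeR or DESeq2, and limma called 0% of all genes, with 15 of 38 and 850 of 11939 at an unadjusted p under 0.05. Psmb7, which carries the trypsin-like site, had 546 and 552 normalized reads at 24 h in Ddit4-/- and wild-type mice, against 753 and 907 at 6 h (log2 difference -0.59 ± 0.18 SE, limma adjusted p = 0.46). Enterocyte markers summed to 1011810 and 938147 normalized reads at 24 h, against 1323900 and 1121670 at 6 h. Stem cell markers summed to 83.2 and 182, against 239 and 441. Smooth muscle sums were also lower at 24 h without overlap, goblet cell sums were higher, and the other cell type sums overlapped. Their part in the proteasome differences was not tested.

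**Figure D4:**
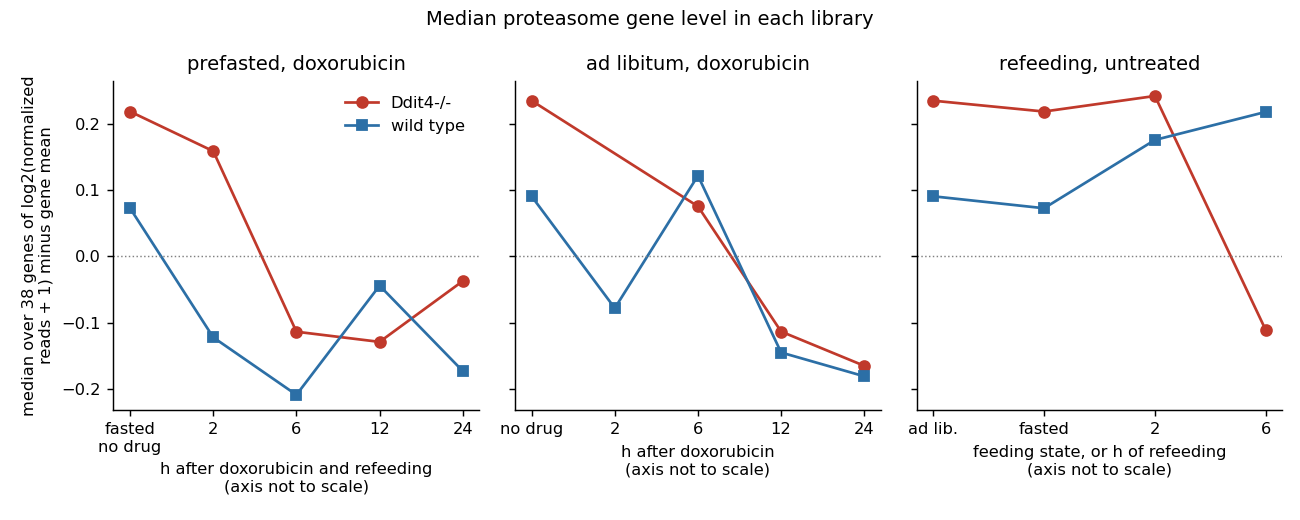
Median over the 38 genes of log2(normalized reads + 1) minus the mean of each gene (vertical axis) in each library, by time after doxorubicin in prefasted and in ad libitum fed mice and by feeding state in untreated mice (3 panels, symbols for genotype). At 12 and 24 h after doxorubicin all 8 libraries lie between -0.18 and -0.04, and the untreated libraries lie between 0.07 and 0.24 except the Ddit4-/- one refed for 6 h, at -0.11. The doxorubicin libraries at 2 and 6 h range from -0.21 (wild type, prefasted, 6 h) to 0.16 (Ddit4-/-, prefasted, 2 h), with the ad libitum 2 h library at -0.08.

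In prefasted mice the drug comparison can be made at matched refeeding times. None of the 38 genes was called at 2 h, where limma called 0.0335% of all genes, or at 6 h, where it called 0%. Neither edgeR nor DESeq2 called any of the 38 at either time, and 8 and 3 of the 38, and 1358 and 1439 of all genes, were at an unadjusted p under 0.05. The median log2 difference was -0.20 at 2 h and -0.21 at 6 h, against -0.02 and -0.01 over all genes. At 2 h the stem cell markers summed to 1203 and 1754 normalized reads after doxorubicin, against 2478 and 5964 untreated. The cycling crypt markers summed to 2082 and 2290, against 3195 and 4524, and the Paneth cell markers to 6734 and 25444, against 19823 and 45429. At 6 h the ranges were 353 to 589 after doxorubicin, against 429 to 570.0 untreated for stem cell markers, 1354 to 1492, against 1461 to 1583 for cycling crypt markers, and 3596 to 6825, against 2806 to 5859 for Paneth cell markers. None of these markers was at 0, and their part in the differences was not tested.

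Psme2, the beta subunit of PA28, which like Psme1 is induced by interferon, had 2442 and 2015.5 normalized reads at 2 h after doxorubicin in Ddit4-/- and wild-type mice, against 1524 and 1349 in untreated mice refed for 2 h. Psme1 had 4925 and 4556, against 3617 and 3457. Both genes were higher in both treated libraries, by 0.63 ± 0.20 and 0.42 ± 0.15 on the log2 scale (SE), without a call (limma adjusted p = 0.25 and 0.28). Psmd14, the deubiquitinase of the 19S lid, had 692 and 599 normalized reads at 2 h after doxorubicin, against 1091 and 854 untreated (log2 difference -0.58 ± 0.19 SE, limma adjusted p = 0.26).

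At 2 h, 18 of 38 genes had both treated libraries below both untreated ones, where 23.8% of all genes did, and Psmd10, Psme1 and Psme2 had both above, where 22% did. At 6 h, 12 were below, where 15.8% of all genes were, and 0 above, where 16.5% were. Psmd3 had 1228.5 and 1007 normalized reads at 6 h after doxorubicin, against 1607.5 and 1752 untreated (log2 difference -0.59 ± 0.17 SE, limma adjusted p = 0.18). The 6 h median was 0.02 without the wild-type untreated library that carries the pancreatic transcripts and -0.38 without the Ddit4-/- untreated one. The 2 h median was -0.09 without the wild-type treated library, whose title says untreated.

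Against the untreated ad libitum libraries, all 4 prefasted libraries at 12 and 24 h after doxorubicin were lower for 23 of 38 genes, where 16.8% of all genes were, and all higher for 0, where 16.1% were. The 23 included all 7 alpha-ring genes, 6 of 7 beta-ring genes, 4 of 6 ATPases and 4 of 11 other 19S subunits. These groups differ in the fast, refeeding, drug and hours at once, which cannot be told apart. No untreated library was refed for 12 or 24 h. Within prefasted mice the median log2 difference was -0.15 for 12 h minus 2 h and 0.03 for 24 h minus 6 h. limma called none of the 38, where it called 1.03% and 0% of all genes, with 2 of 38 at an unadjusted p under 0.05 in each, and 1728 and 1382 of all genes. edgeR called none, and DESeq2 called Psme1 in the second. Psme1 had 4509 and 4019.5 normalized reads at 24 h in Ddit4-/- and wild-type mice, against 3177 and 2723 at 6 h (log2 difference 0.53 ± 0.15 SE, limma adjusted p = 0.16). The 12 h minus 2 h median was 0.02 without the Ddit4-/- library at 2 h.

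Over 7 pairs of doxorubicin libraries matched on genotype and time, prefasted minus ad libitum gave a median log2 difference of -0.04 over the 38 genes, against -0.01 over all genes. The outermost were Psmc1, a 19S ATPase, at -0.20 ± 0.11 and Psmd5 at 0.10 ± 0.14 (SE, limma adjusted p = 0.75 and 0.89). None of the 38 was called by limma, edgeR or DESeq2, limma called 0% of all genes, and 0 of 38 and 766 of all genes were at an unadjusted p under 0.05.

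The pairs did not share a direction. At 6 h, 34 of 38 genes were lower in the prefasted library in Ddit4-/- mice and 32 in wild-type mice (medians -0.20 and -0.36), where 51.5% and 51.2% of all genes were. At 12 h the medians were -0.01 in Ddit4-/- and 0.11 in wild-type mice, and at 24 h 0.18 and -0.03. At 2 h the single wild-type pair had -0.01. Tested at each time, limma called none of the 38 at 6, 12 or 24 h, where it called 0.00838%, 0% and 0% of all genes, and 8, 0 and 0 of the 38, and 1393, 421 and 329 of all genes, were at an unadjusted p under 0.05. DESeq2 called Psme1 at 6 h, and edgeR called none. In the 6 h libraries the cycling crypt markers summed to 1354 to 1492 normalized reads in prefasted mice, against 1679 to 2052 in ad libitum mice. Paneth cell markers summed to 3596 to 6825, against 7681 to 10080. Smooth muscle, fat and pancreatic acinar sums were also lower without overlap. Sums for stem cells, enterocytes, goblet cells, B and plasma cells and T cells overlapped. The part of these cell types in the 6 h differences was not tested.

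For the pairs at 12 and 24 h minus those at 2 and 6 h, the prefasted effect differed by a median of 0.24 on the log2 scale, against 0.01 over all genes, and was above 0 for 37 of 38, where 51.3% of all genes were. In the test of that difference limma called none of the 38 and 0% of all genes, edgeR and DESeq2 called none of the 38, and 6 of 38 and 671 of all genes were at an unadjusted p under 0.05. The extremes were Psma5 at 0.66 ± 0.28 and Psmd5 at -0.50 ± 0.24 (SE, limma adjusted p = 0.84 for both). Psma1 was the 1 gene of 38 that was lower in all 3 early pairs and higher in all 4 late pairs, where 1.44% of all genes had opposite signs in this way. Its prefasted minus ad libitum log2 differences were -0.30 at 2 h in wild-type mice, and in Ddit4-/- and wild-type mice -0.22 and -0.42 at 6 h, 0.45 and 0.07 at 12 h, and 0.33 and 0.28 at 24 h. The 4 wild-type prefasted libraries are those with conflicting titles. The prefasted effect in Ddit4-/- minus that in wild-type mice had a median of 0.04, and none of the 38 was called by limma, edgeR or DESeq2 (0% of all genes by limma, 0 of 38 and 225 of all genes at an unadjusted p under 0.05).

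**Figure D5:**
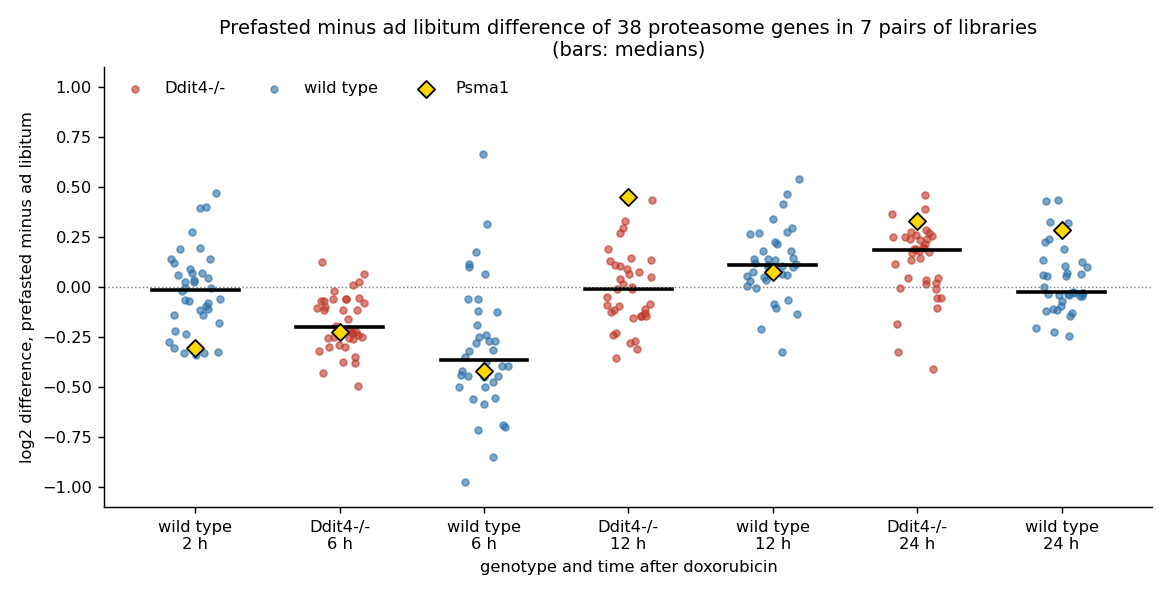
Log2 difference between the prefasted and the ad libitum doxorubicin library for each of the 38 proteasome genes in the 7 pairs of matched genotype and time, with the median of each pair and diamonds for Psma1. Most points are below 0 in both 6 h pairs, and Psma1 is below 0 at 2 and 6 h and above 0 at 12 and 24 h.

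Without the drug, fasting and 2 h of refeeding left the family near its ad libitum level. After the 24 h fast the median log2 difference from ad libitum feeding was 0.01, and after 2 h of refeeding it was 0.03 against fasted and 0.03 against ad libitum mice. None of the 38 was called by limma, edgeR or DESeq2 in these 3 comparisons, where limma called 0.343%, 0.251% and 0.779% of all genes, and 1, 1 and 0 of the 38, and 843, 1035 and 1490 of all genes, were at an unadjusted p under 0.05. After the fast Psmd5 was at 0.43 ± 0.21 and Psmb3, a beta-ring subunit without a proteolytic site, at -0.42 ± 0.24 on the log2 scale (SE, limma adjusted p = 0.72 and 0.79). Psmd2, a scaffold of the 19S base, had 2631 and 2438 normalized reads at 2 h of refeeding in Ddit4-/- and wild-type mice, against 2048 and 1770.1 in fasted mice (log2 difference 0.41 ± 0.16 SE, limma adjusted p = 0.44).

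At 6 h of refeeding Psme1 was the 1 gene of 38 called against ad libitum feeding, where limma called 3.68% of all genes, 2% higher and 1.68% lower. It had 2781 and 2698 normalized reads at 6 h in Ddit4-/- and wild-type mice, against 4421 and 3834 in ad libitum mice, without overlap, and fell by 0.59 ± 0.15 on the log2 scale (SE, limma adjusted p = 0.039). Psme2 had 1225 and 1672 normalized reads at 6 h, against 2292 and 1591 in ad libitum mice, so that its groups overlapped (log2 difference -0.42 ± 0.20 SE, limma adjusted p = 0.23). The median over the 38 genes was -0.13, with -0.43 for the alpha ring, -0.25 for the beta ring and 0.07 for the 11 other 19S subunits. Both 6 h libraries were below both ad libitum libraries for 9 of the 38 genes (23.7%), near the share of all genes (24.4%). Both were above them for 4 (10.5%), Psmc2, Psmd2, Psmd12 and Psme4, where 23.7% of all genes were.

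The 2 libraries at 6 h of refeeding differ from each other. Psma1 had 1547 normalized reads in the Ddit4-/- and 1839 in the wild-type library, and Psmd1 had 1884 and 1148. Without the wild-type library, which carries the pancreatic transcripts, the median was -0.33 and 7 genes were called, and without the Ddit4-/- one it was 0.03 and 0 were called, with the lone library assumed to vary like the other groups. The count was 0 without any 1 of the untreated ad libitum or 2 h refed libraries or of the ad libitum libraries at 12 and 24 h after doxorubicin, and 2 without either prefasted doxorubicin library at 6 h. With the 3 libraries of few Y-linked reads left out, Psme1 was at -0.56 (limma adjusted p = 0.31).

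Against fasted and against 2 h refed mice the 6 h libraries had medians of -0.11 and -0.16, and limma and edgeR called none of the 38, where limma called 7.02% and 9% of all genes. DESeq2 called Psme1 in the first and Psmb2 in the second, and 6 and 5 of 38 were at an unadjusted p under 0.05, as were 2994 and 3198 of the 11939 genes. Psmb2, a beta-ring subunit, had 877.5 and 919 normalized reads at 6 h in Ddit4-/- and wild-type mice, against 1409 and 1219.7 at 2 h of refeeding (log2 difference -0.55 ± 0.17 SE, limma adjusted p = 0.059). The 6 Paneth cell markers summed to 2806 and 5859 normalized reads at 6 h of refeeding, against 18271 and 23221 with ad libitum feeding, and the 4 stem cell markers to 429 and 570.0, against 1939 and 2876, none of them at 0. Their part in these differences was not tested.

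Ddit4-/- mice did not differ from wild type past the threshold in any of the 38 genes by limma, edgeR or DESeq2, where limma called 0.578% of all genes, and 3 of 38 and 1430 of all genes were at an unadjusted p under 0.05. The median log2 difference over 11 matched states was 0.04, against -0.01 over all genes, with 27 of 38 above 0. Psmd5 averaged 336 ± 82.2 normalized reads in Ddit4-/- and 399 ± 74.4 in wild-type libraries (SD, n = 11 each). Ddit4-/- was the higher of the pair in 1 of 11 states, and the gene stood at -0.26 ± 0.09 on the log2 scale (SE, limma adjusted p = 0.23). Psme1 averaged 3981 ± 613 normalized reads in Ddit4-/- and 3543 ± 611 in wild-type libraries (SD, n = 11 each) and was higher in 10 of 11 pairs (log2 difference 0.17 ± 0.06 SE, limma adjusted p = 0.26). Psma5 was also higher in 10 of 11 pairs, by 0.24 ± 0.11 on the log2 scale (SE, limma adjusted p = 0.42).

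Over the 38 genes the pair medians, Ddit4-/- minus wild type, ran from -0.22 in untreated mice refed for 6 h, where 32 genes were lower in Ddit4-/-, to 0.28 in prefasted mice at 2 h after doxorubicin, where 33 were higher. The Ddit4-/- effect with doxorubicin minus that without had a median of 0.02, and of 0.29 with the 3 libraries of few Y-linked reads left out, all of them untreated Ddit4-/-. The effect without the drug then rests on a single pair, the untreated mice refed for 6 h (median -0.22). The wild-type library of that pair carries the pancreatic transcripts. With all libraries, none of the 38 was called in this difference of effects by limma, edgeR or DESeq2. There limma called 0% of all genes, and 1 of 38 and 497 of all genes were at an unadjusted p under 0.05. The member was Psmd10, a 19S chaperone also known as gankyrin, at 0.47 ± 0.20 on the log2 scale (SE, limma adjusted p = 0.98).

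Genes that act around the proteasome were followed as lists. The 3 immunoproteasome genes, whose products replace the proteolytic subunits in immune cells and under interferon, had 2 members called between genotypes, Psmb9 and Psmb10, where 0.578% of all genes were called. Psmb9 averaged 1198 normalized reads in Ddit4-/- libraries (713 to 1621) and 805 in wild-type libraries (641 to 1118), and was higher by 0.56 ± 0.10 on the log2 scale (SE, limma adjusted p = 0.016). Psmb10 was higher by 0.37 ± 0.07 (SE, limma adjusted p = 0.027), while Psmb8 was at 0.35 ± 0.09 without a call (SE, limma adjusted p = 0.12). In the same comparison T cell markers summed to 3539 to 11061 normalized reads in Ddit4-/- libraries, against 2758 to 5827 in wild-type libraries, with 2 of the 5 markers tested called higher and at most 1 of 6 at 0. Their part in the Psmb9 and Psmb10 differences was not tested. Both calls were lost without the 4 libraries with conflicting titles (limma adjusted p = 0.243 for both) and with the 3 libraries of few Y-linked reads left out (0.158 and 0.166). Leaving out 1 library at a time kept the Psmb9 call in all 23 refits and lost the Psmb10 call in 11 of 23 (limma adjusted p up to 0.0576). Without the drug Psmb10 was called lower at 6 h of refeeding than with ad libitum feeding, by 0.95 on the log2 scale, where 1.68% of all genes were called lower. It had 3484 and 3114 normalized reads at 6 h in Ddit4-/- and wild-type mice, against 7166 and 5622 with ad libitum feeding. This call was lost without either untreated ad libitum library. The log2 difference was -0.94 without the wild-type one and -0.96 without the Ddit4-/- one. In ad libitum mice after doxorubicin Psmb10 fell by 1.07 ± 0.17 at 12 h and by 1.15 ± 0.17 at 24 h on the log2 scale (SE, limma adjusted p = 0.0015 and 0.0022). The 24 h call was lost without the Ddit4-/- 24 h library (limma adjusted p = 0.0651) and with the 3 libraries of few Y-linked reads left out (limma adjusted p = 0.0669).

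Of 14 tested assembly and associated factors, 2 were called at 12 h after doxorubicin, both lower, where 9% of all genes were called and 4.21% were lower. Psmg1 and Psmg2, the paired chaperones that start alpha-ring assembly, averaged 59.3 and 64.8 normalized reads at 12 h, against 162 and 174 untreated. They fell by 1.71 ± 0.42 and 1.43 ± 0.38 on the log2 scale (SE, limma adjusted p = 0.020 and 0.029). None of the 11 tested genes of the NFE2L1 axis was called in that comparison, and Nfe2l1 itself averaged 1201 normalized reads at 12 h, against 1184 untreated. None of the 20 tested ubiquitin and shuttling genes was called in it. Of the 8 subunits of the cytosolic chaperonin, which folds actin and tubulin, 5 were lower at 12 h, where 4.21% of all genes were, from Cct3 at -1.28 ± 0.20 to Cct4 at -0.58 ± 0.16 (SE, limma adjusted p = 0.0016 and 0.030). Of 13 heat shock genes, 5 were higher at 2 h of refeeding than in fasted mice, where 0.251% of all genes were called in either direction, among them Hsph1 at 3.72 ± 0.37 and Hsp90aa1 at 1.84 ± 0.21 on the log2 scale (SE, limma adjusted p = 3e-04 and 8e-04), in the comparison where none of the 38 proteasome genes was called. Calls of genes outside the 38 and the immunoproteasome list were not followed in the fits with other settings or with libraries left out.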

How the data were processed

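The authors deposited 1 table of signal values: read counts per gene divided by 1 size factor per library, as its values show, since whole reads were recovered for 100% of values within 0.01. Trim Galore, STAR, DESeq2 and mm10 are named in the submitters' processing notes, with no versions. Groups came from the labels. log2(value + 1) was fitted with limma 3.58.1 in R 4.3.3 over 11939 genes whose mean reached 10, with 12 states and genotype as terms (10 residual degrees of freedom). The 7 feeding pairs were fitted with a pair term. P-values were Benjamini-Hochberg adjusted over all genes, with a threshold of 0.05. The scripts were tested on simulated data. Alternatives were edgeR 4.0.16 and DESeq2 1.42.0 on recovered reads, other scalings, filters and pseudocounts, and fits without doubtful or single libraries. Named genes were those past the threshold, the extremes of each comparison and 9 fixed representatives. Members and lists were chosen with earlier results of these data known, and the count without 1 untreated library was added after seeing the data.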

Additional observations from a re-analysis of the deposited data

Results flagged for a closer look

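For Psma1 the prefasted effect at 12 and 24 h minus that at 2 and 6 h was 0.60 ± 0.17 on the log2 scale (SE, limma adjusted p = 0.77). Every early pair was below 0 and every late pair above 0, and the difference did not pass the threshold after adjustment. Psma1 was picked by this pattern of signs, as the 1 gene of 38 with opposite signs, where 1.44% of all genes had them.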

How the results depend on the processing

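No called gene changed direction, while some medians near 0 without a call changed sign. A gene was kept if still called, a count if within a set ratio of the main count, and a median if it moved by less than 0.11. That limit is the residual SD of the library medians, and a median kept by it can still change sign. By these limits, of 623 comparisons with another setting 549 were kept, 34 lost a call and 40 moved. Of 1313 that left out 1 library 1170 were kept. Where that library was in neither group compared, the log2 difference could not change. The causes were not tested. No paired analysis by replicate number was possible because each combination has 1 library, and the pairs described above are libraries matched on genotype and time or on state. Of the 12 states 11 have 2 libraries and 1 has a single library, which limits the precision, and the gene with the fewest reads had 119 in a library.

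Counts of called genes for refed 6 h minus fasted (0) were 3 with quantile normalization and 1 with TMM, DESeq2 or without the 4 libraries with conflicting titles. For refed 6 h minus 2 h (0) they were 1 with quantile normalization, DESeq2 or without conflicting titles, and 3 without the 2 pancreatic libraries. For refed 6 h minus ad libitum (1) they were 2 with quantile normalization, DESeq2 or without conflicting titles, 0 with edgeR, without a genotype term or without the 3 libraries lacking Y-linked reads, and 7 without the pancreatic libraries. For doxorubicin at 12 h (5) they were 8 with quantile normalization or without the pancreatic libraries, 2 with edgeR, 1 without a genotype term and 0 without those lacking Y-linked reads. For 24 h (2) they were 1 without a filter, with TMM, edgeR or without a genotype term, 5 with DESeq2 or without the pancreatic libraries, and 0 without those lacking Y-linked reads. DESeq2 gave 1 for 24 h minus 6 h prefasted (0) and for prefasted minus ad libitum at 6 h (0).

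Medians moved under quantile normalization to -0.24 (refed 6 h minus fasted), -0.29 (minus 2 h) and -0.24 (minus ad libitum), and without the pancreatic libraries to -0.28, -0.34 and -0.32, and to 0.00627 for doxorubicin minus untreated at refed 6 h. Without conflicting titles they were -0.0761 for doxorubicin minus untreated at refed 2 h and -0.27 for 12 h minus 2 h prefasted. Without the libraries lacking Y-linked reads they were 0.0330 for doxorubicin at 6 h and 0.29 for the Ddit4-/- effect with doxorubicin minus that without. The latter then rests on a single untreated pair.

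Leaving out 1 library gave counts of 0 to 2 for refed 6 h minus fasted, 0 to 3 minus 2 h, 0 to 7 minus ad libitum, 0 to 8 for doxorubicin at 12 h, 0 to 6 at 24 h and 0 to 1 for prefasted minus ad libitum at 6 h. Medians ranged from -0.33 to 0.0818, -0.35 to 0.0181 and -0.33 to 0.0339 for the 3 refed 6 h comparisons, -0.30 to -0.0865 and -0.38 to 0.0186 for doxorubicin minus untreated at refed 2 and 6 h, -0.24 to 0.0166 for 12 h minus 2 h prefasted and -0.0766 to 0.16 for the prefasted effect between genotypes.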
